A study of Mus musculus with 15 samples.

Results

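Among 42006 probes of a mouse expression array, 48 separated the livers of 6 newborn mice into 3 with a high and 3 with a low signal, and the division cut across arsenic treatment. The level of a probe was M, the log2 of liver over reference signal on an array. The gap was the lowest M on PND1 control 2, PND1 arsenic 1 and PND1 arsenic 3 (the high side) minus the highest M on PND1 control 1, PND1 control 3 and PND1 arsenic 2 (the low side). Probes with a gap of at least 1 were taken, which is 0.114% of all probes. The probes were chosen by these newborn values of M, so that their newborn levels are given as a description with no test.

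All mice were ApoE-knockout animals, controls included, with the strain labelled C57/BL6J, and none of the groups carried an intact ApoE gene. PND1 control pups and PND70 control mice, the latter aged 10 weeks, came from dams that drank tap water free of arsenic. PND1 arsenic pups and PND70 prenatal arsenic mice came from dams that drank water with sodium arsenite at 85 mg/L, which is 49 ppm of arsenic, between gestational day 8 and birth, and the older mice then drank tap water. PND70 postweaning arsenic mice were born to unexposed dams and drank the same dose from postnatal day 21. Each of the 5 groups held 3 livers, which the study took from separate litters in the control and prenatal groups, and each liver was hybridized in the Cy3 channel of 1 array against a Cy5-labelled pool of RNA from 11 mouse cell lines. The number of arrays, 3 in a group, limits the precision of every mean given here.

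Apolipoprotein E is the ligand through which remnant lipoproteins are taken up by the liver. The liver of a newborn mouse is in transition, since hepatocytes take over metabolism at the onset of suckling while the organ still holds blood-forming cells that leave it later. Whole-liver RNA averages over all of these cells, and a lower signal can come from fewer cells of a type or from less RNA in each cell, which cannot be told apart here. The probes are 60-mers that carry only an identifier in the files, and gene names were not used here. Which transcripts they detect, and whether these came from liver cells or from other tissue collected with the organ, was therefore not determined, and a high signal is described as a signal of the sample only. Read by eye, several member sequences resembled transcripts of striated muscle. That reading was not checked against any gene set, and the part of such tissue in the division was not tested.

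The 3 probes with the largest gap are shown first by the 3′ part of their sequence, because their ends hold the letters of the hexamer that directs cleavage and tailing of a messenger, a match that is not shown to be a used site. The capitals mark AATAAA or its common variant ATTAAA within the last 30 bases, written 5′ to 3′ as on the array.
Z00019741-1: gaagcATTAAAgccagccattctgttttgc
Z00024410-1: gggagtacttggcctcgctccAATAAAgga
Z00024390-1: actggaaggAATAAAagttgacaatgtaaa

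The letters AATAAA occurred in 7 of the 48 probes (14.6%), against 6.75% of all probes, and on the other strand in 1 (2.08%), against 3.42%. ATTAAA occurred in 2 of the 48 (4.17%) against 3.20%, and on the other strand in 0 against 2.31%. A reading frame without a stop codon ran through the probe in 39 of the 48 (81.3%) and in 83.2% of all probes. The median GC content was 45% in the set and 43.3% over the array.

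A further group of sequences is shown because the same bases were measured more than once. In the first pair, capitals mark 35 bases that Z00039462-1 and Z00065481-1 hold on opposite strands, and in the second pair 29 bases that Z00057624-1 and Z00049340-1 hold on opposite strands.
Z00039462-1: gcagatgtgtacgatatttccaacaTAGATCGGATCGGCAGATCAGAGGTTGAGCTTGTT
Z00065481-1: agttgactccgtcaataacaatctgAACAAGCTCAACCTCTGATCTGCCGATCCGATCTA
Z00057624-1: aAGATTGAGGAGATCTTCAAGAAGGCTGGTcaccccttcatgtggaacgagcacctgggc
Z00049340-1: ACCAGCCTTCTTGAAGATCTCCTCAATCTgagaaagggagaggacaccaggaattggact

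Z00039462-1 read 3.56, 3.37 and 3.88 (M) on the high side and -0.03, -0.33 and -0.18 on the low side, in the order PND1 control 2, PND1 arsenic 1, PND1 arsenic 3, then PND1 control 1, PND1 control 3, PND1 arsenic 2, which is kept throughout. Its opposite-strand partner Z00065481-1 read 0.32, 0.14 and 0.17, then 0.26, 0.12 and 0.07, with no separation (gap -0.12). Of these probes, the one on the first strand was divided and the one on the other strand was not. Z00057624-1 likewise read 1.83, 1.46 and 2.33, then -0.21, -0.12 and -0.27, and its opposite-strand partner Z00049340-1 read -0.27, 0.09 and 0.02, then 0.07, -0.00 and 0.04. These were the only 2 members that shared a run of 20 or more bases with an opposite-strand probe.

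A pair of members, Z00059104-1 and Z00025219-1, overlapped by 35 bases on the same strand, so that they count as 2 readings of 1 sequence rather than as 2 independent probes. Their shared stretch ends in these 30 bases, all of which are common to both and therefore in capitals.
Z00059104-1 and Z00025219-1: GGGATGGCAGTCATCTTTCCAGAATGATCA

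Z00059104-1 read 2.46, 2.14 and 2.47 on the high side and 0.56, 0.54 and 0.50 on the low side. Z00025219-1 read 2.50, 1.77 and 2.54, then 0.45, 0.26 and 0.24. The rule requires the same livers to be high in both. Within the high side, PND1 arsenic 1 was the lowest for both. Z00050064-1 (gap 1.13) shared 26 bases on the same strand with Z00056079-1, which was no member although all of its high-side values, 0.46, 0.41 and 0.40, lay above its low-side values of -0.08, 0.10 and -0.18 (gap 0.29).

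Related but distinct sequences were also present. Z00030864-1 matched member Z00039540-1 in 33 of 47 aligned bases (70.2%) and shared a run of 22 bases with Z00027252-1, which was no member. Capitals mark the run shared with Z00027252-1 in the first 2 sequences, and in the last sequence the bases equal to those of Z00030864-1 in the ungapped alignment.
Z00030864-1: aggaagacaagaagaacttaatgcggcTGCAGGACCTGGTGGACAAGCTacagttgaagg
Z00027252-1: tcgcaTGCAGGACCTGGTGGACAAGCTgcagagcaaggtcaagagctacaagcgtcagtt
Z00039540-1: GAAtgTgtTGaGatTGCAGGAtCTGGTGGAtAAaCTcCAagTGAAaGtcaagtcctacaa

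Z00030864-1 read 3.62, 3.08 and 3.65, then -0.02, 0.46 and -0.08. Z00039540-1 read 2.11, 1.79 and 2.02, then -0.52, -0.22 and -0.31. Z00027252-1 was also high on the high side, at 1.69, 1.64 and 2.46, but read 1.59 on PND1 control 3 against 0.34 on PND1 control 1 and 0.18 on PND1 arsenic 2, which left a gap of only 0.05. PND1 control 3 was also the highest low-side liver for Z00030864-1. A second related pair, Z00054611-1 and Z00027762-1, matched in 34 of 45 bases (75.6%), with gaps of 1.72 and 1.16. Of the 1128 pairs among the 48 probes, these 2 and the overlapping pair were the only ones at 70% identity or more. This ungapped comparison finds overlapping or alike probe sequences only. Probes from separate parts of the same transcript would be missed, so that the number of distinct transcripts was not determined.

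Whole-array correlations were alike within and between the sides. Over all other probes, arrays of the same side correlated at 0.886 to 0.937 and arrays of opposite sides at 0.883 to 0.941, as a description over probes that share a reference and a platform. The median absolute difference between sides was 0.08 over those probes, but 125 of them (0.298%) had side means that differed by at least 1, 78 higher on the high side and 47 on the low side. The median M of an array was slightly lower on the high side (-0.036, -0.031 and -0.030) than on the low side (-0.016, -0.027 and -0.027), which was not tested further. A technical count was higher on every high-side array, though PND1 arsenic 1 and PND1 control 3 lay close together. The number of probe spots whose reference signal the scanner software had replaced by a surrogate was 265, 79 and 233 on the high side and 19, 74 and 37 on the low side. Only 1 member, Z00020119-1, had such a spot, on 3 newborn arrays, and the part of this count in the division was not tested. No member was saturated or marked as an outlier spot on a newborn array, each had 1 spot, and their spots lay between rows 6 and 203 and columns 15 and 430 of the grid.

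The balance of the 2 directions changed with the size of the gap. With any gap above 0, 1381 probes (3.29%) were higher on every array of the high side and 1819 (4.33%) were higher on every array of the low side. From a gap of 0.25 the counts were 185 and 38, from 0.5 they were 89 and 3, and from 0.75 they were 60 and 0. At a gap of at least 1, 48 and 0 probes were counted from the ratios, 46 and 16 from the liver channel alone scaled to each array's 75th percentile, and 49 and 6 from the ratios without PND1 arsenic 2. At least 2 was reached by 15 probes, at least 3 by 8 and at least 4 by 1. The widest gaps in the opposite direction were 0.69 for Z00033889-1, 0.53 for Z00053422-1 and 0.52 for Z00031917-1. The other 5 of the 8 widest, Z00060692-1, Z00022641-1, Z00025601-1, Z00025082-1 and Z00025593-1, ranged from 0.50 down to 0.39.

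The members lay between a gap of 1.02 and 5.27 (median 1.72). Mean M on the high side ranged from -0.32 to 4.47 (median 2.16) and on the low side from -1.94 to 0.91 (median -0.17). The difference of the side means was 1.21 to 5.61 (median 2.10), a ratio of 2.32-fold to 48.9-fold with a median of 4.28-fold. The median SD of a member was 0.19 within the high side and 0.14 within the low side, against 0.13 and 0.14 over all probes. The rule itself requires a wide separation, so that nothing is read from the size of these differences against the SDs.

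The threshold cut through a continuous run of values. The last members inside it were Z00052762-1 (gap 1.03), Z00020318-1 (1.02) and Z00026692-1 (1.02). The first outside were Z00059553-1 (0.98), Z00019804-1 (0.98) and Z00043645-1 (0.94). Gaps of 1 to 2 were found for 33 members, 2 to 3 for 7, 3 to 4 for 7 and above 5 for 1.

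Z00019741-1, which stood apart from the rest, read 4.55, 4.28 and 4.57 on the high side and -0.99, -1.15 and -1.29 on the low side. The means differed by 5.61, or 48.9-fold, with SDs of 0.17 and 0.15 (n = 3 each). Its 9 adult arrays ran from -2.24 to -1.84 with a median of -2.11. The adult livers thus read lower than both newborn sides.

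Z00024410-1 read 2.93, 2.88 and 3.09, then -1.02, -0.89 and -0.89, and its adult range was -1.99 to -1.75 (median -1.89). Z00024390-1 read 3.62, 3.24 and 3.41, then -0.33, -0.37 and -0.46, with adults from -1.05 to -0.77 (median -0.93). In these probes too the adult level was below the low newborn side, and the 3 livers of each side lay within 0.40 of each other.

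Z00040557-1 read 3.63, 3.70 and 4.06, then 0.12, -0.17 and 0.08. Its adult arrays lay between -0.33 and 0.29 except PND70 control 3, at 0.92. Its median adult level of -0.13 was close to the low newborn side, and its liver signal there was only 0.78 (log2) above background, taken as the level that 95% of negative control spots of the array stay under.

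Z00038561-1 read 3.04, 3.11 and 3.56, then -0.33, -0.45 and -0.28, with adults from -0.61 to -0.31 (median -0.45). Z00025481-1 read 3.39, 3.80 and 3.69, then -0.17, 0.11 and -0.11, with adults from -0.16 to 0.16 (median -0.01). Z00039462-1, given above with its partner, had an adult range of -0.40 to 0.10 (median -0.24). All of these adult medians lay within 0.1 of the low newborn mean, while every adult array was more than 2 below the lowest liver of the high side.

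Z00070112-1 read 2.22, 2.46 and 1.86, then -1.28, -1.26 and -1.25, with adults from -1.51 to -0.95 (median -1.23). Z00021896-1 read 2.96, 2.69 and 3.06, then -0.28, -0.26 and -0.15, with adults from -0.31 to 0.05 (median -0.21). The low-side livers of Z00070112-1 differed from each other by less than those of any other member, with an SD of 0.01.

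Z00067675-1 read 3.27, 2.93 and 3.61, then -0.20, 0.16 and 0.11, with adults from -0.65 to -0.12 (median -0.45). Z00030814-1 read 2.80, 2.88 and 2.94, then 0.04, -0.09 and -0.34, with adults from -0.71 to -0.07 (median -0.49). Z00061896-1 read 3.51, 2.91 and 3.31, then 0.21, 0.18 and 0.07, with adults from 0.05 to 0.37 (median 0.14). None of the adult ranges of these 3 probes reached the high side.

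The next members by gap, after Z00030864-1 (2.62), were Z00034706-1 (2.05), Z00039540-1 (2.01), Z00025023-1 (1.97), Z00054808-1 (1.93) and Z00024444-1 (1.87). Z00020119-1 (1.86), Z00022471-1 (1.82), Z00025898-1 (1.79), Z00032169-1 (1.77), Z00023703-1 (1.74), Z00022564-1 (1.72) and Z00054611-1 (1.72) followed. They differed in absolute position. Z00023703-1 was near the reference on the high side (0.08) and far under it on the low side (-1.94), and Z00024444-1 was above the reference on both (2.82 and 0.70).

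The high livers did not all stand equally high. PND1 arsenic 3 was the highest of the high side for 35 members, PND1 control 2 for 10 and PND1 arsenic 1 for 3, whereas over all probes the shares were 36.4%, 31.4% and 32.2%. PND1 arsenic 1 was the lowest of them for 31 members, against 26.9% of all probes. Members' median M was 2.36 for PND1 arsenic 3, 2.11 for PND1 control 2 and 1.82 for PND1 arsenic 1. Both held together, PND1 arsenic 3 highest and PND1 arsenic 1 lowest, for 24 of the 48, against 15.6% of all probes, so that no single order covered most members. In 11 members PND1 arsenic 3 was highest and PND1 control 2 lowest, and in 7 PND1 control 2 was highest and PND1 arsenic 1 lowest.

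The division lay in the liver channel. The liver signal alone differed between sides by 1.17 to 6.08 on the log2 scale (median 2.06), its gap was above 0 for all 48 members, and it was at least 1 for 46. These are processed liver signals with no scaling between arrays. With each array's liver signal taken relative to its 75th percentile, as in the counts from the liver channel alone, the gap was at least 1 for 44 of the 48. The reference signal of the same spots, which comes from 1 pool of RNA on every array, differed by -0.80 to 0.98 (median 0.10). It was higher on the high side in the mean for 35 members and lower for 13. It was higher on every high-side array for 13 members, against 11.6% of all probes, and lower on every one for 4, against 6.93%.

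The reference differences of 0.5 or more in size belonged to 7 members. For Z00024390-1 the reference was 0.98 higher on the high side, which made its ratio difference (14.0-fold) smaller than its difference in liver signal (27.7-fold). The 3 members with a reference lower by that much on the high side, Z00020119-1, Z00022471-1 and Z00032169-1, were also the 3 whose reference was not above background on every newborn array. It exceeded background on 2 of the 6 for Z00020119-1, which had a surrogate reference on 3 newborn arrays, and on 4 of the 6 for both others. Their ratio differences rest in part on reference values at background, and no fold is given for them.

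The term on-off was checked against this background. All 48 members exceeded it in the liver channel on all 3 high-side arrays. On the low side 45 exceeded it on all 3 arrays, 2 (Z00039462-1 and Z00032169-1) on 2 arrays, and only Z00020119-1 on none. The low-side liver signal was at least 1 (log2) above background for 37 members, at least 2 for 19 and at least 3 for 9. Over all probes, 96.8% to 99.0% exceeded background on each low-side array, so that nothing particular to the members is read from these counts. A signal under background on all 3 low-side arrays and above it on all 3 high-side arrays was thus seen for 1 member. Since nearly all probes pass this measure, it cannot show whether the transcripts of the 45 were present or absent in the low-side livers. Z00039462-1 and Z00032169-1 lay near background on the low side, at 0.23 and 0.14 above it on average.

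Z00020119-1 read 1.82, 2.54 and 2.91 on the high side and -0.50, -0.17 and -0.04 on the low side. Its low-side liver signal averaged 0.54 below background, so that its low-side M is a ratio with a liver value at that level, and with the limit on its reference given above its difference is poorly measured. At the other end, Z00054808-1 (2.10, 1.94 and 1.91, then -0.11, -0.02 and -0.28) had a low-side liver signal 5.69 above background. Z00010868-1, at 5.77 above it, read 2.27, 2.49 and 2.38, then 1.14, 0.95 and 0.65.

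The arsenic groups each held livers of both sides. By the rule, 2 of the 3 PND1 arsenic livers and 1 of the 3 PND1 control livers were high, so that the arsenic mean exceeded the control mean for all 48 members, by 0.34 to 1.72 (median 0.70), and the groups overlapped for every one of them. The median SD within the PND1 control group was 1.16 for members against 0.14 for all probes, and within the PND1 arsenic group 1.23 against 0.13. The difference between the groups was smaller than the SD of either group for 45 members and larger than the SD of 1 of them for 3 (Z00062960-1, Z00020119-1 and Z00052253-1). No test of it is given because the choice of members fixed it.

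The adult arrays took no part in the choice. The adult median M of a member was within 0.5 of its low newborn mean for 37 of the 48, against 69.2% of all probes, more than 0.5 under it for 6 and more than 0.5 over it for 5. All 9 adult arrays were below the lowest high-side array for 47 members, against 20.8% of all probes, but the rule chose members with a raised high side, so that nothing is read from this count. They were at or below the highest low-side array for 16 members, against 44.5% of all probes. The rule also used the low-side values, so that nothing is read from this count or from the comparison with the low newborn mean. Adult liver signal exceeded background on all 9 arrays for 46 members and on none for 1. Over all probes, 97.3% to 98.8% exceeded it on each adult array, so that nothing particular to the members is read from this count. The newborn images were all extracted on 1 day and the adult images on another, so that age and extraction day cannot be told apart in this comparison.

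The 6 members whose adult median was more than 0.5 under the low newborn mean included the 3 with the largest gap. Z00010868-1 differed most, with an adult median of -0.89 against a low-side mean of 0.91. Z00056456-1 read 0.23, 0.21 and 0.40, then -0.84, -1.07 and -1.10, and had an adult median of -2.29. For both, and likewise for the 3 with the largest gap, all 6 newborn livers read above the highest adult one. The share of all probes for which this holds was not counted.

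In the opposite direction, Z00027762-1 was the one member whose adult range (0.18 to 1.11) reached its high side (0.97, 1.01 and 1.22, then -0.19, -0.33 and -0.26). Z00025531-1 read 1.82, 1.66 and 1.88, then 0.38, 0.36 and 0.07, with an adult median of 1.06. Z00046584-1 read 2.42, 2.19 and 2.66, then 0.61, 0.45 and 0.98, with an adult median of 1.30. The low newborn livers were the lowest of the series on average for these 3 probes.

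Adult livers did not repeat the division. The range over the 9 adult arrays had a median of 0.44 for members and 0.41 for all probes, and it reached 1 for 4 members, against 4.68% of all probes. Pearson's r between a member and the mean of the other 47 over these 9 arrays, given as a description of arrays that share a reference, had a median of 0.03, ran from -0.84 to 0.78 and was above 0 for 25 members. The 4 wide adult ranges belonged to different livers. Z00040557-1 was highest on PND70 control 3, Z00025219-1 on PND70 postweaning arsenic 3 (0.90), Z00007767-1 on PND70 prenatal arsenic 3 (0.08), and Z00020119-1 was lowest on PND70 prenatal arsenic 2 (-1.03). The liver signal of Z00020119-1 was not above background on any adult array, so that its adult range is one of values at background. The overlapping probe Z00059104-1 read 0.06 on the array where Z00025219-1 read 0.90.

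Whether earlier arsenic changed the same transcripts in adult liver was asked with limma on the 9 PND70 arrays, over all 42006 probes. For prenatal arsenic against control, 1 of the 48 members (2.08%) passed the unadjusted p of 0.01 that the methods use, against 5.11% of all probes. It was lower after arsenic, against 0.919% of all probes lower and 4.19% higher. That balance turned with the scaling, since 82.0% of the calls over all probes were higher here but 29.3% with the liver channel alone. No member passed a Benjamini-Hochberg adjusted p of 0.05, against 0.00714% of all probes (3 probes, but 1329 without PND70 control 1), and 4 had an unadjusted p under 0.05, against 14.5%. The members' median difference was -0.02, against 0.01 over all probes, and their median absolute difference was 0.08 in both. With so few members past the threshold, no difference from the share over all probes is read from this fit. Without PND70 control 2, 2 of the 48 members passed, against 1208 of 42006 probes (unadjusted p under 0.01). Nothing about the members is read from that count either.

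The member that passed was Z00070112-1. Its M was -1.04, -1.14 and -0.95 in PND70 controls and -1.30, -1.51 and -1.30 after prenatal arsenic, so that the groups did not overlap. The limma difference was -0.21 with an SE of 0.06 (unadjusted p = 0.0051, adjusted p = 0.162, with 0.0803 to 0.961 over the alternatives tried). With the replicate number as a block the difference was the same, -0.21, but it no longer passed. In that fit 0 members did, against 2068 of all probes. It also failed the threshold without PND70 control 3 (difference -0.18), without PND70 prenatal arsenic 2 (-0.17) or 3 (-0.22), in the fit to all 15 arrays (-0.21), and in the liver channel alone, where the difference was -0.08. It passed on the processed signals themselves (-0.33) and without background subtraction (-0.06).

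For postweaning arsenic against the same control arrays, 1 of the 48 members passed the unadjusted threshold, against 6.47% of all probes, and none passed the adjusted one, against 2.07%, a background of 868 probes that ranged from 2 without PND70 postweaning arsenic 3 to 2275 without PND70 control 1. An unadjusted p under 0.05 was reached by 5 members, against 14.9% of all probes. The median difference was -0.04, against 0.00 over all probes. Z00056456-1 was the member past the threshold and was higher after arsenic, against 5.61% of all probes higher and 0.859% lower (86.7% of the calls higher, but 48.6% with the liver channel alone). Its M was -2.29, -2.44 and -2.54 in PND70 controls and -2.15, -2.29 and -2.04 after postweaning arsenic. The groups met at -2.29, where the highest control liver (replicate 1) lay marginally above the lowest exposed liver (replicate 2). The limma difference was 0.33 with an SE of 0.08 (unadjusted p = 0.0028, adjusted p = 0.0795, with 0.0386 to 0.771 over the alternatives tried). The threshold was missed without PND70 control 2 (difference 0.30) or 3 (0.31), without PND70 postweaning arsenic 1 (0.32) or 3 (0.26), in the fit to all 15 arrays (0.33) and on the processed signals themselves (0.26). It passed without background subtraction, where the difference was 0.10.

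The adult arsenic differences of all members lay between -0.28 and 0.26 for prenatal and between -0.30 and 0.33 for postweaning exposure.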

How the data were processed

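Liver RNA (Cy3) and reference RNA (Cy5) of 15 arrays were measured. What the authors deposited is Agilent Feature Extraction A.7.5.1 output, in which each spot has linear intensity values, as mean and background signals and as processed signals after the software's background and dye corrections, without normalization between arrays. Other deposited columns hold spot flags, and the flag for signals well above background was set for nearly every probe, so that negative controls were used instead. M was computed from processed signals, averaged over spots of a probe. Members, lists and tests were chosen with earlier results of these data known. Planned lists of cell type markers need gene names and were not used. Named probes are the 25 with the largest gap (in full for up to 12), the 8 widest in the opposite direction, 3 on each side of the threshold, and those sharing sequence. Others named here were chosen after their values were seen.

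For the adult comparisons, normexp background correction (offset 50), quantile normalization of each channel over 15 arrays and within-array loess (span 0.3) preceded limma 3.58.1 in R 4.3.3, with outlier spots missing and one mean per group over the 9 PND70 arrays. The fit was tried on simulated data, of which no result is given here. Deviations of same-numbered PND70 control and prenatal arsenic arrays from their group means correlated over probes at 0.373, 0.157 and 0.158. For control and postweaning arrays the correlations were 0.09, 0.50 and -0.26. For prenatal and postweaning arrays they were -0.129, -0.004 and -0.276. Arrays with different numbers were not compared and the labels give the numbers no meaning, so that a pairing was not established. Promoter and miRNA sequences of RefSeq shared 20 bases with 0 members, against 2.49% and 0.0333% of all probes. The alternatives were the liver channel alone, normexp processing, other thresholds, filters on dim probes, other fits, a replicate block and each array left out.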

Additional observations from a re-analysis of the deposited data

How the results depend on the processing

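The set counted 89 probes at a gap of 0.5 and 15 at a gap of 2. It counted 46 with the liver channel alone, scaled to each array's 75th percentile (44 of the 48 among them, against 46 of the 48 unscaled), 40 after normexp, quantile and loess processing (39 among them) and 49 with outlier spots missing (all 48). Leaving out 1 newborn array gave 49 to 55 probes, which include the 48 by construction because a gap cannot shrink when an array is dropped. The opposite division held 3 probes at a gap of 0.5, 16 with the liver channel alone, and 0 to 6 when 1 array was left out, with 6 without PND1 arsenic 2 and 1 without PND1 arsenic 1. The members' median gap was 1.54 with the liver channel alone, 1.39 after normexp processing and 1.72 to 1.86 with 1 array left out. The probe just outside the threshold, Z00059553-1, had a gap of -0.17 in the liver channel alone.

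Over all probes, prenatal arsenic gave 3 calls at the adjusted threshold and 1050 (without PND70 prenatal arsenic 2) to 4726 (without PND70 control 1) with 1 array left out, against 2146. With 1 array left out the adjusted calls numbered 0 to 1329 (the latter without PND70 control 1). Postweaning arsenic gave 868 adjusted calls (2 without PND70 postweaning arsenic 3, 3 without PND70 control 2, 5 without PND70 postweaning arsenic 1, 25 without PND70 control 3 and 2275 without PND70 control 1), 4452 with the liver channel alone, and 1800 (without PND70 postweaning arsenic 3) to 5139 (without PND70 control 1), against 2718. Of the prenatal calls 82.0% were higher, but 29.3% with the liver channel alone and 61.5% without PND70 control 1. For postweaning calls the shares were 86.7%, 48.6% and 56.3%. Among the 48 members, prenatal calls numbered 0 at the adjusted threshold and 0 in the fit to 15 arrays, against 3 and 1485 of 42006 probes. They numbered 2 with the liver channel alone, against 2409 probes, and 2 without background subtraction, against 2002. With 1 array left out they numbered 0 to 3. There were 3 without PND70 control 1 (4726 over all probes) and 2 without PND70 control 2 (1208). There were 0 without PND70 control 3 (1071) or prenatal arsenic 3 (1402). With the replicate block, which pairs same-numbered arrays, prenatal member calls numbered 0, against 2068 probes. Postweaning member calls were 0 at the adjusted threshold (868 over all probes), 0 in the fit to 15 arrays (1900) and 3 with the liver channel alone (4452). With 1 array left out they were 0 to 3. They were 3 without PND70 control 1 (5139 over all probes) and 2 without PND70 postweaning arsenic 2 (2934). They were 0 without PND70 control 3 (1863), postweaning arsenic 1 (2107) or postweaning arsenic 3 (1800). Adjusted postweaning member calls numbered 2 without PND70 control 1, against 2275 of all probes, and 1 without PND70 postweaning arsenic 2, against 932. The cause of these shifts was not tested. With 3 arrays a group, the counts of calls in adults changed with single arrays, while the differences of the 2 members named kept their direction.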
